A study of Mus musculus with 14 samples.

Results

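Kirrel, Kirrel2, Kirrel3, Pcdh8, Pcdh10, Pcdh17 and Pcdh19 encode adhesion molecules of olfactory sensory neurons (OSNs), and their transcripts were followed in the olfactory epithelium of mice at P5. These 7 genes were taken by symbol from the 51211 gene symbols of the normalized count tables: 3 Kirrel family genes and 4 delta-2 protocadherins, all present in both tables. RNA came from 14 mice in 2 experiments, one in which neuronal activity was reduced genetically and one in which pups breathed a single odorant.

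The Kir2.1 experiment compared 3 mice that carried OMP-IRES-tTA together with the transgene tetO-Kir2.1-IRES-tauLacZ with 3 controls labelled OMP-IRES-tTA het. Mice of both groups thus carried the tTA driver inserted at the Omp locus, which is active in mature OSNs. Only the former carried the responder for Kir2.1, an inwardly rectifying potassium channel that lowers the excitability of neurons. Their sample label, Kir2.1-Off, does not describe an age of P5, and the text refers to them as Kir2.1 mice. In the PEA experiment, 4 mice exposed to the odorant PEA from P0 to P5 were compared with 4 control mice without PEA, all of wild-type genotype. The labels give C57BL/6 as the strain of all 14 mice, whereas the study's methods name CD-1 pups for this experiment. The Kir2.1 libraries were made from poly-A RNA and the PEA libraries from total RNA depleted of ribosomal RNA. The values of one experiment are therefore not on the scale of the other, and each was tested alone.

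Kirrel proteins belong to the immunoglobulin superfamily and bind like partners on other cells. Neighbouring OSN axons that express different odorant receptors carry different Kirrel2 and Kirrel3 levels, and the level of Kirrel2 has long been known to depend on activity in OSNs. Delta-protocadherins are cadherin superfamily members with weak homophilic adhesion. The delta-2 members share cytoplasmic motifs through which some of them reach the WAVE actin-regulating complex, and Pcdh10 is a further molecule whose level in OSNs is tied to odorant receptor identity and activity. Axons with similar sets of such molecules converge on glomeruli in the olfactory bulb.

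The dissected tissue held RNA of mature OSNs beside that of other cell types. All 10 of 10 mature OSN markers were measured in both experiments. The mean log2 level of these markers lay between 12.96 and 13.52 in the Kir2.1 experiment and between 11.28 and 11.55 in the PEA experiment. Kcnj2, the gene of Kir2.1, had normalized counts of 986 to 1274 in the controls and of 17926 to 24193 in the Kir2.1 mice. The deposited values sum to 33049111 to 34198478 per mouse in the Kir2.1 experiment and to 11476120 to 12467331 in the PEA experiment. These sums follow normalization, so that the read depth is unknown. Vomeronasal receptor genes, which mark neurons of a neighbouring organ, differed widely between dissections. Their mean log2 level was 6.06 in 1 control of the Kir2.1 experiment and at most 2.51 in the other mice of that experiment, and it ran from 1.43 to 5.77 in the PEA experiment. Nothing in the labels says that mice came from separate litters, and p-values measure only the spread between these mice.

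Kirrel2 stood far above the other members in the controls of the Kir2.1 experiment. Per kb of merged exon length, in GENCODE vM21 on GRCm38, its level was 3500 ± 213 normalized counts (SD, n = 3). Pcdh8 came next at 711 ± 121, followed by Kirrel at 314 ± 33.0 and Pcdh17 at 304 ± 19.8. Kirrel3 lay at 240 ± 18.7, Pcdh10 at 196 ± 47.7 and Pcdh19 at 129 ± 6.21. Kirrel and Pcdh17 overlapped between mice, as did Kirrel3 and Pcdh10, whereas the other neighbours in this order did not. Kirrel2 and Pcdh8 held the first and second places in each of the 6 mice, and Pcdh19 the seventh. With the longest transcript as the length, Kirrel3 stood at 374, Pcdh10 at 378 and Pcdh17 at 345, so that the order of the middle members depended on the length chosen.

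In the controls of the PEA experiment, Kirrel2 was again the highest member, at 173 ± 35.9 normalized counts per kb (SD, n = 4). Pcdh17 followed at 110 ± 27.9, then Kirrel at 76.4 ± 23.1 and Pcdh19 at 61.5 ± 20.5. The lowest levels per kb were those of Kirrel3 at 27.4 ± 3.78, Pcdh8 at 23.6 ± 5.93 and Pcdh10 at 15.7 ± 2.22. Only Pcdh19 and Kirrel3 were neighbours in this order without overlap between control mice. Kirrel2 held the first place and Pcdh17 the second in each of the 8 mice. Pcdh8, second in the Kir2.1 experiment, took places 5 to 7 here. RNA selection, read length and strandedness all differed between the experiments and cannot be told apart in this difference, and whether the strain differed is not settled by the sources.

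Kirrel2 fell in the Kir2.1 mice. Its gene (ENSMUSG00000036915) lies on the minus strand of chromosome 7 of GRCm38, from 30447534 to 30457690. Its RefSeq window upstream of the transcription start holds 75 bases outside annotated transcripts, shown because this is the member with the largest difference. They lie on the minus strand of GRCm38.p6 at chr7:30457691-30457765 and are given 5′ to 3′.
Kirrel2: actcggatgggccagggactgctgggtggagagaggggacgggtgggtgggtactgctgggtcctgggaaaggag

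Normalized counts of Kirrel2 were 14115, 14413 and 12834 in controls 1 to 3. They were 3558, 4507 and 4315 in Kir2.1 mice 1 to 3. The highest Kir2.1 mouse thus lay far below the lowest control. The mean was 13787 ± 839 in controls and 4127 ± 502 in Kir2.1 mice (SD, n = 3 each), or 29.9% of the control level. On the log2(value + 1) scale the difference was -1.75 (SE 0.10, 95% confidence interval -1.99 to -1.50), with an adjusted p of 0.00128 in limma with Benjamini-Hochberg adjustment. The exact two-sided permutation test gave p = 0.1, the smallest that 3 against 3 mice allow. Among 19807 genes tested, Kirrel2 ranked 7 by p and 126 by fold change, counted from the lowest.

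Of the 7 members, 1 passed the threshold of 0.05 in the Kir2.1 experiment, against 70 of all genes tested, or 0.353%. Of these genes 55 (0.278% of those tested) were lower and 15 higher. When single mice were left out, the Kirrel2 difference ran from -1.81 to -1.64 and its adjusted p from 0.00251 to 0.0243. The call was lost among the mice with high Xist, the RNA expressed from the inactive X chromosome of females, where 2 controls and 2 Kir2.1 mice remained (log2 difference -1.83, adjusted p = 0.0631 in limma).

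**Figure D1:**
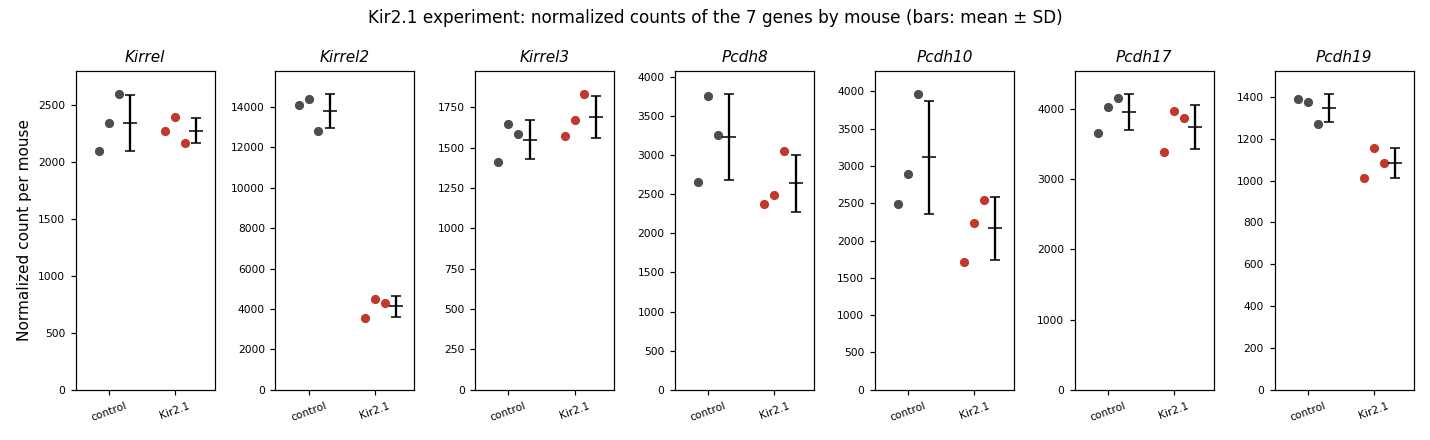
Normalized counts (y axes, from 0) of each of the 7 genes in single mice of the Kir2.1 experiment, with 3 controls (grey) and 3 Kir2.1 mice (red), and bars for the mean ± SD. Kirrel2 lies between 12834 and 14413 in controls and between 3558 and 4507 in Kir2.1 mice, and Pcdh19 is the other gene whose groups do not overlap.

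In whole epithelium, fewer cells of a type and less RNA per cell cannot be told apart. The whole list of mature OSN markers lay lower in Kir2.1 mice, with 10 of 10 genes below 0, 1 gene called (Omp) and a median log2 difference of -0.40, beside 0.006 over all genes tested. Summed over the list, normalized counts were 133944 to 150130 in controls and 99137 to 112662 in Kir2.1 mice. Omp, the olfactory marker protein, fell by 0.60 on the log2 scale (SE 0.08, adjusted p = 0.0466 in limma). When each mouse was scaled to these markers, which moved the median of all genes to 0.42, Kirrel2 was still lower by 1.33 log2 units (log2 difference -1.33, SE 0.11, adjusted p = 0.00619 in limma). Vomeronasal neuron markers were below 0 in 8 of 8 genes with 0 called and 1 at an unadjusted p under 0.05. Without control 1, the mouse richest in vomeronasal receptors, the Kirrel2 difference was -1.73 (adjusted p = 0.0243 in limma). All 6 stromal markers lay above 0 with a median of 0.53, and 0 were called in limma, 3 at an unadjusted p under 0.05. Immune markers (6 of 6, median 0.30), bone and muscle markers (6 of 6, median 0.38) and horizontal basal markers (5 of 5, median 0.34) also lay above 0, with 0 called in limma and 1, 1 and 0 genes at an unadjusted p under 0.05. Over all genes tested, 11.1% passed that unadjusted threshold. The mean log2 level of the immune list was 8.08 to 8.40 in controls and 8.45 to 8.79 in Kir2.1 mice. The remaining marker lists held genes on both sides of 0, with 0 called in limma. Medians were -0.09 for immature OSN, -0.07 for globose basal and progenitor, and 0.03 for sustentacular markers. They were 0.16 for ensheathing glia, 0.22 for endothelial, and 0.32 for Bowman gland and respiratory markers. The part of these lists in the Kirrel2 difference was not tested.

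The other 2 Kirrel genes did not pass the test. Kirrel3 (ENSMUSG00000032036, chromosome 9, 34485894 to 35036716, plus strand), the family member often found on axons with little Kirrel2, had normalized counts of 1414, 1647 and 1587 in controls. The Kir2.1 mice had 1573, 1670 and 1831. The groups overlapped, and the difference of 0.13 on the log2 scale (SE 0.09, 95% confidence interval -0.09 to 0.34) had an adjusted p of 0.705 in limma. The study, which used DESeq2 on counts, reports Kirrel3 as upregulated in Kir2.1 mice. Its test called more genes than the 70 called here. Kirrel (ENSMUSG00000041734, chromosome 3, 87078593 to 87174747, minus strand) is the first member named in the family and is broadly expressed outside neurons. Its normalized counts were 2098, 2338 and 2591 in controls and 2267, 2388 and 2164 in Kir2.1 mice. The groups overlapped here too, with a log2 difference of -0.04 (SE 0.09, 95% confidence interval -0.26 to 0.18, adjusted p = 0.933 in limma). Scaled to the mature OSN markers, Kirrel3 was higher in Kir2.1 mice by 0.54 log2 units (adjusted p = 0.0120 in limma) and Kirrel by 0.38 (adjusted p = 0.0175), in a fit where 9607 genes were called and the median of all genes moved to 0.42.

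The balance between Kirrel2 and Kirrel3 within a mouse was compared next. The log2 ratio of Kirrel2 to Kirrel3 normalized counts was 3.15 ± 0.15 in controls and 1.28 ± 0.13 in Kir2.1 mice (SD, n = 3 each), a difference of -1.87. The lowest control ratio was 3.01 and the highest Kir2.1 ratio 1.43, and the exact two-sided permutation test gave p = 0.1, the smallest possible here. Per kb, Kirrel2 stood at 14.6 ± 1.57 times the Kirrel3 level in controls and at 4.00 ± 0.38 times in Kir2.1 mice. With the longest transcript as length these ratios were 9.50 and 2.59. The ratio within a mouse is free of the scaling between mice.

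The makeup of the Kirrel family also differed without overlap between the groups. Kirrel2 made up 86.3 ± 1.59% of the summed Kirrel level per kb in controls and 64.8 ± 2.20% in Kir2.1 mice. The share of Kirrel was 7.77 ± 1.11% and 19.0 ± 1.82% in these groups, and that of Kirrel3 5.93 ± 0.52% and 16.3 ± 1.09%. The summed level itself was 4054 ± 190 and 1614 ± 144 normalized counts per kb. The larger shares of Kirrel and Kirrel3 thus stood beside levels of their own that overlapped between the groups.

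**Figure D2:**
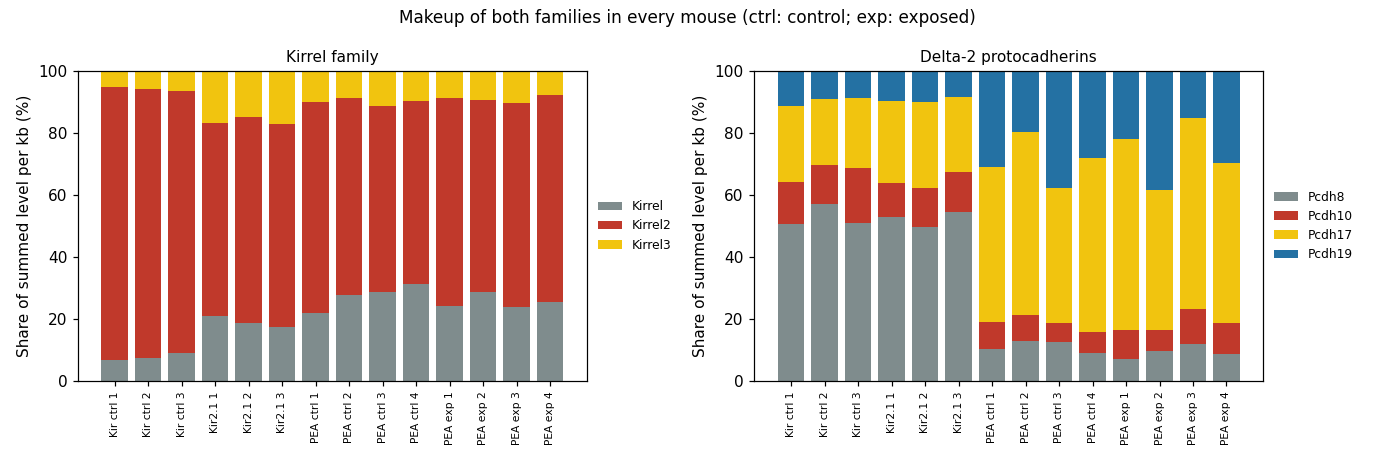
Share (%, y axis) of each gene in the summed level per kb of the Kirrel family (left) and of the delta-2 protocadherins (right), 1 bar per mouse. Kirrel2 takes 84.6 to 87.8% in the Kir2.1 experiment's controls and 62.3 to 66.4% in Kir2.1 mice, while Pcdh8 is the largest protocadherin share in these 6 mice and Pcdh17 in the PEA experiment.

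All 4 delta-2 protocadherins among the members had log2 differences below 0 in Kir2.1 mice, from -0.52 to -0.08, and 0 of 4 passed the threshold in limma. Pcdh18, a delta-2 protocadherin outside the 7 members, lay on the other side at 0.31 (SE 0.14, adjusted p = 0.467 in limma). At an unadjusted p under 0.05 the protocadherin members were 2 of 4, Pcdh10 and Pcdh19, both lower. With Kirrel2 this made 3 of the 7 members, where 11.1% of all genes tested were called at that threshold (6.2% in the lower direction). Differences below 0 were found for 48.8% of all genes tested and for 6 of the 7 members. Scaled to the mature OSN markers, Pcdh8, Pcdh17 and Pcdh19 turned to the other side, with log2 differences of 0.13, 0.34 and 0.10, and of these Pcdh17 passed the threshold (adjusted p = 0.0145 in limma). Pcdh10 stayed below 0 under this scaling at -0.10 (SE 0.16, adjusted p = 0.597).

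Pcdh10 (ENSMUSG00000049100, chromosome 3, 45378398 to 45435623, plus strand) had the largest of the 4 differences with all mice included. The 250 bases upstream of its start, on the plus strand of GRCm38.p6 at chr3:45378148-45378397, are shown because they hold 2 copies of the CRE half-site TGACG, the core of the element bound by cAMP-responsive factors. The copies are in capitals.
Pcdh10: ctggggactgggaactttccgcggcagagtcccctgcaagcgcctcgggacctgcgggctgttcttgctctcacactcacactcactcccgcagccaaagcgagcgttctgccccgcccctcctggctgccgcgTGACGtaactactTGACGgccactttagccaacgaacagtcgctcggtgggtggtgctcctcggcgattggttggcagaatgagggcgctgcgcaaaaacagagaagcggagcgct

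Normalized counts of Pcdh10 were 2493, 2890 and 3958 in controls and 1711, 2240 and 2539 in Kir2.1 mice. The highest Kir2.1 mouse exceeded the lowest control. The log2 difference was -0.52 (SE 0.20, 95% confidence interval -0.99 to -0.04), with an adjusted p of 0.404 in limma. When single mice were left out the difference ran from -0.66 to -0.33. It was -0.33 without control 3, where Pcdh19 stood at -0.35, and -0.36 without Kir2.1 mouse 1. The spread within groups was 0.32 log2 units, above that of 71.8% of the genes tested and wider than the 0.14 of Kirrel2.

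The groups of Pcdh19 did not overlap. This X-linked gene (ENSMUSG00000051323, chromosome X, 133582860 to 133688987, minus strand), known from an epilepsy of females with mosaic expression, had normalized counts of 1392, 1377 and 1273 in controls. In Kir2.1 mice they were 1015, 1155 and 1085. Its log2 difference was -0.31 (SE 0.08, 95% confidence interval -0.51 to -0.12), with an adjusted p of 0.222 in limma and p = 0.1 in the exact permutation test. Lower groups without overlap were found for 2 of 7 members, Pcdh19 and Kirrel2, and for 9.04% of all genes tested. Of the 4 protocadherins Pcdh19 had the smallest spread within groups, 0.08 log2 units, and its control with low Xist (1273) lay beside those with high Xist (1377 and 1392).

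Pcdh8 and Pcdh17 overlapped between groups. Pcdh8 (ENSMUSG00000036422, chromosome 14, 79766775 to 79771312, minus strand), also known as arcadlin and regulated by activity at hippocampal synapses, had normalized counts of 2660, 3758 and 3257 in controls and 2376, 2490 and 3053 in Kir2.1 mice. The log2 difference was -0.28 (SE 0.15, 95% confidence interval -0.63 to 0.06, adjusted p = 0.555 in limma). An antisense gene, Gm9748, overlaps 436 bases of its exons and holds 8.57% of its 40-base words, and its own values were 2.0 to 18.7. Pcdh17 (ENSMUSG00000035566, chromosome 14, 84443563 to 84539002, plus strand), which acts in axon extension and synapse formation, had 3664, 4036 and 4157 in controls and 3390, 3977 and 3876 in Kir2.1 mice. Its log2 difference was -0.08 (SE 0.09, 95% confidence interval -0.28 to 0.13, adjusted p = 0.826 in limma). The share of Pcdh8 in the summed level per kb of the 4 protocadherin members overlapped between the groups, at 52.9 ± 3.60% in controls and 52.3 ± 2.50% in Kir2.1 mice.

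In the PEA experiment, 0 of 7 members passed the threshold in limma and 0 of 7 had an unadjusted p under 0.05. Log2 differences were below 0 for 5 of the 7 members and for 53.5% of all genes tested. Over all 17322 genes tested, 31 or 0.179% were called, and 15% had an unadjusted p under 0.05. The groups of control and exposed mice overlapped for each member, where 9.32% of all genes were without overlap. The smallest p of the exact permutation test with 4 against 4 mice is 0.0286.

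Kirrel2 had normalized counts of 685, 796, 481 and 762 in PEA controls and 789, 832, 720 and 660 in exposed mice. Control 3 was the lowest of the 8. The log2 difference was 0.16 (SE 0.16, 95% confidence interval -0.19 to 0.52, adjusted p = 0.677 in limma). For the whole epithelium this interval leaves out a fall of the size seen in Kir2.1 mice, but a modest difference in either direction was not detectable with this spread. The study proposes that PEA acts on few neurons, those with receptors for it, and a fall limited to such cells was not tested. Kirrel3, with 168.5, 182.9, 148.4 and 206.3 in controls and 168.8, 203.8, 183.8 and 129.6 in exposed mice, differed by -0.05 (SE 0.17, adjusted p = 0.917). The log2 ratio of Kirrel2 to Kirrel3 was 1.92 ± 0.19 in controls and 2.14 ± 0.17 in exposed mice (SD, n = 4 each), a difference of 0.21 with p = 0.171 in the exact permutation test. Kirrel showed the widest spread of the family, with 419, 662, 433 and 767 in controls and 536, 726, 491 and 482 in exposed mice. Its log2 difference was -0.0004 (SE 0.21, 95% confidence interval -0.48 to 0.48).

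Pcdh19 was the member that differed most between single PEA mice. It had 498, 444, 909 and 723 in controls and 423, 919, 279 and 500 in exposed mice, so that both groups held low and high mice. The spread within groups was 0.61 log2 units, above that of 90.7% of the genes tested, and the log2 difference of -0.36 (SE 0.34, 95% confidence interval -1.11 to 0.40) had an adjusted p of 0.663 in limma. Among controls, the 2 mice with high Xist had 723 and 909 and the 2 with low Xist had 444 and 498. In exposed mice the 3 with high Xist ranged from 423 to 919 and the single mouse with low Xist had 279. With an Xist term in the fit the Pcdh19 difference was -0.53 (SE 0.24, adjusted p = 0.365 in limma). The labels used here give no sex, and its part in the Pcdh19 values was not tested further.

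Pcdh8 was the member with the lowest p after PEA. Its normalized counts were 71.6, 126.4, 129.4 and 100.7 in controls and 59.6, 99.4, 96.9 and 64.5 in exposed mice, a log2 difference of -0.41 (SE 0.24, 95% confidence interval -0.96 to 0.13, adjusted p = 0.459 in limma). Pcdh10 had 214, 289, 225 and 269 in controls and 278, 245, 317 and 248 in exposed mice, with a log2 difference of 0.13 (SE 0.14, 95% confidence interval -0.18 to 0.44, adjusted p = 0.715). Pcdh10 thus had intervals below 0 in the Kir2.1 experiment and on both sides of 0 here, and neither difference passed the threshold. Pcdh17 had 987, 1639, 1293 and 1797 in controls and 1471, 1334, 1413 and 1074 in exposed mice, with a log2 difference of -0.08 (SE 0.18, adjusted p = 0.869).

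**Figure D3:**
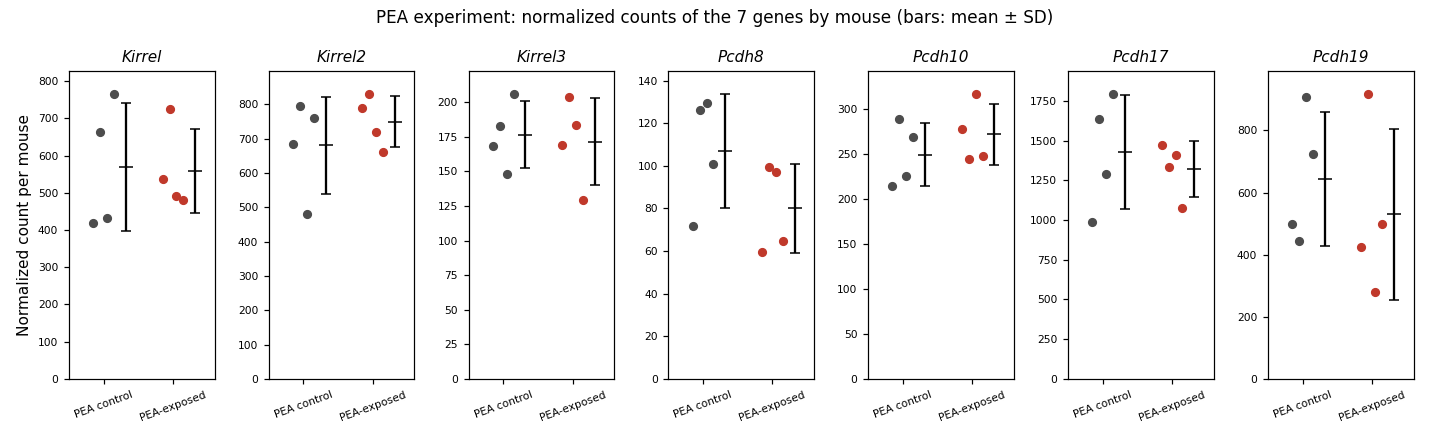
Normalized counts (y axes, from 0) of each of the 7 genes in single mice of the PEA experiment, with 4 controls (grey) and 4 PEA-exposed mice (red), and bars for the mean ± SD. The groups overlap for each gene, and Pcdh19 spans 279 to 919.

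**Figure D4:**
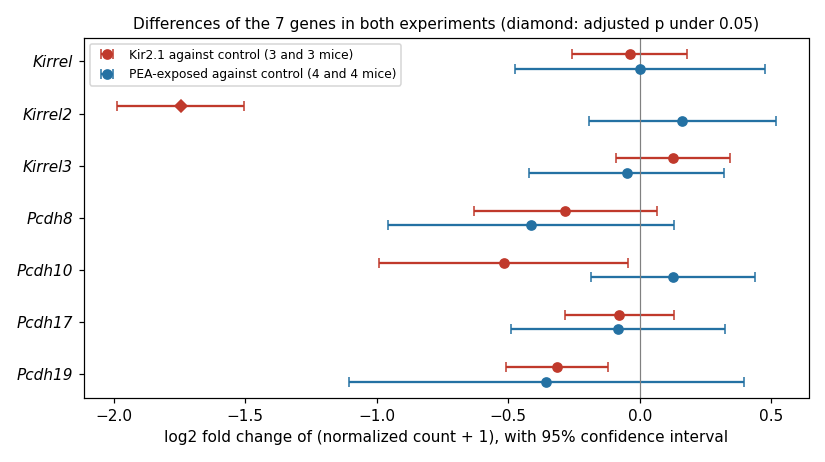
Log2 fold change of normalized count + 1 (x axis) with its 95% confidence interval for the 7 genes, Kir2.1 against control in red and PEA-exposed against control in blue. Kirrel2 in Kir2.1 mice, at -1.75, is the one value marked as passing the adjusted threshold.

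Other delta-protocadherins were read beside these members. None of the 6 other genes of the delta-1 and delta-2 groups passed the threshold in either experiment in limma. At an unadjusted p under 0.05 there were 2 of 6 in the Kir2.1 experiment and 1 of 6 in the PEA experiment. Over all genes tested these shares were 11.1% and 15%. The lowest p among them was that of Pcdh11x in Kir2.1 mice, with a log2 difference of -0.54 (SE 0.13, adjusted p = 0.187), and that of Pcdh9 after PEA, at -0.33 (SE 0.12, adjusted p = 0.235). All 10 genes of the family together had 8 differences below 0 in each experiment, with medians of -0.15 and -0.18. Over all genes tested, 48.8% and 53.5% lay below 0, with medians of 0.006 and -0.02.

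Partners of both families were not called either. For the Kirrel partners, the slit diaphragm, adaptor and scaffold proteins, nephrin included, that bind Kirrel proteins or act with them, 0 of 10 genes tested were called in either experiment, and 3 of 10 had an unadjusted p under 0.05 in each. In Kir2.1 mice these 3 were all lower, whereas after PEA 1 was lower and 2 were higher. Over all genes tested, 11.1% and 15% passed that threshold. Magi2, a synaptic scaffold, came nearest in Kir2.1 mice at -0.47 (SE 0.08, adjusted p = 0.0789 in limma). Cd2ap, an adaptor of the slit diaphragm, did so after PEA at -0.32 (SE 0.13, adjusted p = 0.303). For the 11 delta-protocadherin partners, which are mostly subunits of the WAVE complex and include the adhesion molecule Cdh2, 0 were called and 0 had an unadjusted p under 0.05 in either experiment, with medians of -0.05 in Kir2.1 mice and -0.07 after PEA. Cyfip2, a WAVE subunit, had the lowest p of this list in both experiments, at -0.16 and -0.31.

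Other molecules of glomerular sorting held 2 calls of 13 genes in Kir2.1 mice, both lower, where 0.278% of all genes tested were called lower. At an unadjusted p under 0.05 they were 4 of 13, all lower, where 6.2% of all genes tested were lower at that threshold. Epha5, a receptor for the ephrin-A ligands that sort axons in a complementary way, fell by 0.99 log2 units (SE 0.11, adjusted p = 0.0180 in limma). Sema7a, a semaphorin whose level follows OSN activity, fell by 0.93 (SE 0.11, adjusted p = 0.0322). The value for Kirrel2 in the same mice was -1.75. After PEA 0 of 13 were called in limma, and 3 had an unadjusted p under 0.05, as did 15% of all genes tested. Cntn4, a contactin that acts in axon targeting, came nearest at -0.39 (SE 0.11, adjusted p = 0.144). Among 10 genes of odor transduction, the pathway that raises cAMP in OSN cilia, 9 lay below 0 in Kir2.1 mice, with a median of -0.38. Most of these genes are also in the list of mature OSN markers, so the fall of both lists is largely that of the same genes. At an unadjusted p under 0.05, 8 of the 10 were lower, against 6.2% of all genes tested. Pde1c was called in these mice (fell by 0.65, SE 0.07, adjusted p = 0.0223 in limma). After PEA 0 of these 10 were called, with 2 at an unadjusted p under 0.05, beside the same 15% of all genes tested.

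The genes whose profiles over the 14 mice were most like that of Kirrel2 were S100a5, Kcnmb3, Scn4b, Sema7a and Chgb. Likeness was the root mean squared difference between log2 profiles, each centred on its mean within an experiment, among 11042 genes with a mean of at least 100 in both. S100a5, which encodes a calcium-binding protein, was nearest at 0.18 log2 units and the others lay at 0.29 to 0.34, where the profile of Kirrel2 itself had a root mean square of 0.60. Normalized counts of S100a5 were 6859, 6774 and 6616 in controls and 1976, 2180 and 1882 in Kir2.1 mice. Its log2 difference of -1.75 (SE 0.07, adjusted p = 0.000215 in limma) stood beside -1.75 for Kirrel2, and after PEA the values were 0.21 and 0.16. The profiles hold the difference between groups, so that like differences are part of how these genes were chosen. Scn4b, an auxiliary sodium channel subunit, had a log2 difference of -1.01 in Kir2.1 mice and 0.07 after PEA. For Pcdh10, the other member with a difference of at least 0.5, the nearest genes were Trim45, Syp, Elovl4, Wbp11 and Tlk1, at 0.15 to 0.16, where its own root mean square was 0.27. None of these 5 genes passed the threshold in either experiment in limma.

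**Figure D5:**
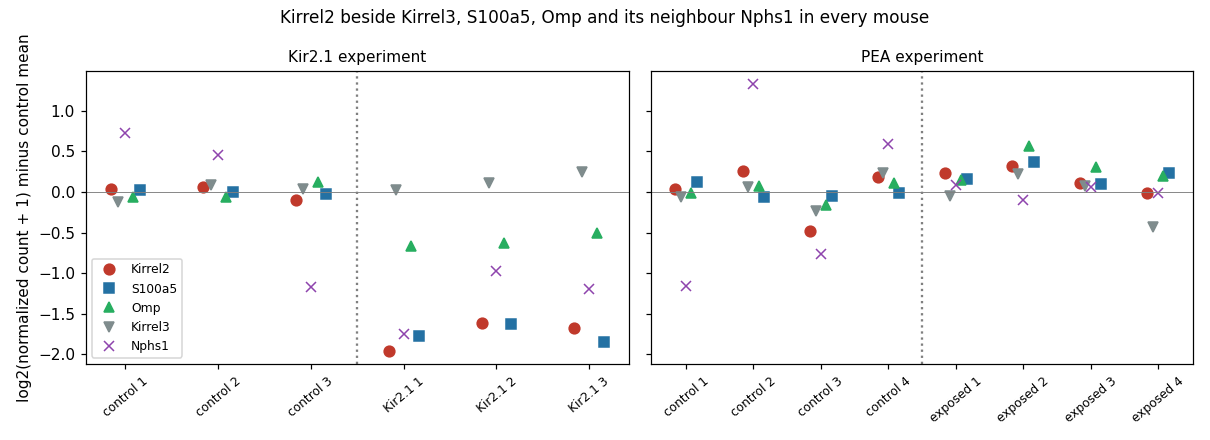
Log2(normalized count + 1) minus the control mean (y axis) of Kirrel2, S100a5, Omp, Kirrel3 and Nphs1 in each mouse of the Kir2.1 (left) and PEA (right) experiments, with a dotted line between controls and the other group. In Kir2.1 mice Kirrel2 and S100a5 lie below Omp, Kirrel3 stays at or above its control mean, and Nphs1 is spread in both groups.

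The neighbour of Kirrel2 was lower in Kir2.1 mice without passing the test. Nphs1, which encodes nephrin, the partner of Kirrel proteins in the kidney slit diaphragm, starts 624 bp from Kirrel2 on the opposite strand. Its normalized counts were 1012, 839 and 272 in controls and 182, 312 and 267 in Kir2.1 mice. Control 3 lay among the Kir2.1 mice, and the log2 difference of -1.31 (SE 0.48) had an adjusted p of 0.373 in limma. In the PEA experiment it was listed at 13.6 to 15.6 in exposed mice and at 6.0 to 38.3 in controls. Aplp1, 1998 bp away, had a log2 difference of -0.46 (SE 0.09, adjusted p = 0.133) in Kir2.1 mice.

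Windows of 250 bases upstream of the RefSeq start were at hand for 6 of the 7 members and were searched on both strands for 5 motifs. The full CRE, TGACGTCA, was in 0 of 6 windows and in 1.55% of all 32851 windows. Its half-site TGACG, which the full motif contains, was in the windows of Pcdh10 (2 copies, shown above) and Kirrel (1 copy) and in 17.8% of all windows. Only 10 bases of the Kirrel window lay outside annotated transcripts of the gene, and its copy was not within them. The E-box CACGTG, the homeodomain core TAATTA and the Olf-1/Ebf motif were in 0 of 6 windows, and in 6.02%, 4.84% and 0.78% of all windows. The GC content of all 250 bases was 56.4% for Kirrel2, of which 75 lay outside annotated transcripts, and 63.2% for Pcdh10. Its median over all windows was 52.4%. These matches are of letters only, and no measurement of binding was made.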

How the data were processed

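RNA-seq of olfactory epithelium was used from 14 mice at P5, 3 Kir2.1 and 3 control mice and 4 PEA-exposed and 4 control mice, grouped by their labels. The authors quantified reads with Salmon 1.3.0 against Ensembl transcripts and normalized gene sums with DESeq2 1.30.0. The deposited values are this signal, normalized counts per gene, and are not whole reads. Read depth per sample and its counting error are therefore unknown. The study's methods give a reverse-strand setting for all libraries although the Kir2.1 libraries were unstranded, and antisense genes could not be separated there. One PEA control, replicate 4 here, carries the number 5 in its library name.

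Each experiment was filtered to genes whose mean reached 10. Their log2(value + 1) values entered limma 3.58.1 (R 4.3.3) with a trended empirical Bayes prior, Benjamini-Hochberg adjustment over all genes tested and a threshold of 0.05, after a test of the fit on simulated data. The added 1 understates changes of low genes. Single values and ratios were compared by exact two-sided permutation tests over mice. Python 3.11.15 was used with scipy 1.17.1, numpy 2.4.6, pandas 2.3.3 and, for plots, matplotlib 3.10.9. Levels per kb divide by merged exon length in GENCODE vM21 (95.9% of symbols matched). Promoter sequences came from RefSeq on GRCm38.p6.

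The members and gene lists were chosen with earlier results of these data known. Besides the members, the text names list genes past the threshold, the gene of lowest p in each pathway list and experiment, markers and neighbouring genes beside a member's result, and the 5 genes most alike for members with a log2 difference of at least 0.5. Pseudocounts, filters, scalings, covariates, a replicate block and leaving out mice were tried as alternatives.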

Additional observations from a re-analysis of the deposited data

How the results depend on the processing

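The fall of Kirrel2 in Kir2.1 mice kept its direction under all 19 alternatives (-1.83 to -1.33 on the log2 scale) and its call in 18, the exception being the mice with high Xist (-1.83), which left 2 mice a group and was chosen after seeing the data. There 0 members were called and Kirrel stood at 0.071. Scaling to the mature OSN markers raised the members called to 4, with Kirrel at 0.38, Kirrel3 at 0.54, Pcdh8 at 0.13, Pcdh17 at 0.34 and Pcdh19 at 0.10. Of all genes, 9607 were then called. The 70 genes called in the Kir2.1 experiment became 20 without a trend, 22 with a vomeronasal receptor covariate, 44 with an Xist covariate, 8 in mice with high Xist, 171 at an adjusted p of 0.10 and 16 to 44 with a mouse left out, lowest without control 1. With a mouse left out, Kirrel ran from -0.12 to 0.036 and the members called stayed at 1. After PEA, 0 members were called under every alternative. Kirrel turned to 0.0083 under quantile normalization and 0.057 when scaled to the markers, where Kirrel3 stood at 0.0064. With a mouse left out, Kirrel ran from -0.13 to 0.16, Kirrel3 from -0.14 to 0.077 and Pcdh17 from -0.25 to 0.039. The 31 genes called became 52 without a filter, 19 with a vomeronasal covariate, 62 when scaled to the markers, 18 in mice with high Xist, 128 at an adjusted p of 0.10 and 19 to 41 with a mouse left out. The cause of these moves was not tested.

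Over all genes tested, same-numbered mice were hardly alike, and their deviations from the group means had correlations of -0.06, -0.01 and 0.16 for Kir2.1 and of 0.13, -0.02, -0.05 and 0.10 for PEA. Xist, however, followed the replicate number in the Kir2.1 experiment, at 13216, 11955 and 3.0 in controls and 14299, 13033 and 22.1 in Kir2.1 mice. Whether replicate numbers pair the mice was thus not settled. With the replicate block, 9 genes were called in Kir2.1 mice, 8 of them among the 70, and Kirrel2 stayed called (adjusted p = 0.0295 in limma). For Pcdh10 in Kir2.1 mice the block gave an SE of 0.08, beside 0.20 in the main fit (log2 difference -0.52, adjusted p = 0.150 in limma). The block gave 23 genes after PEA and changed the call of no member. Read depth could not be assessed.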

Other observations

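In the PEA experiment, controls 1 and 3 both lay below controls 2 and 4 for 5 of the 7 members, Kirrel, Kirrel2, Kirrel3, Pcdh10 and Pcdh17. The same order was found for 25.3% of the 17322 genes tested. Some gene lists took the same order in mean log2 level. Mature OSN markers stood at 11.31 and 11.34 in controls 1 and 3 and at 11.55 and 11.54 in controls 2 and 4. Immature OSN markers stood at 9.70 and 9.68 against 10.10 and 10.10, and sustentacular markers at 11.001 and 10.989 against 11.378 and 11.465. Odor transduction genes, most of which are also mature OSN markers, stood at 10.65 and 10.72 against 10.99 and 11.04. Horizontal basal markers, at 8.04 and 7.85 against 7.34 and 7.56, and endothelial markers, at 7.09 and 7.14 against 6.81 and 6.70, took the opposite order. So did stromal and ensheathing glia markers. The globose basal, Bowman gland and respiratory, vomeronasal, immune, and bone and muscle lists took neither order. The order was noticed in the data, and the part of these lists in it was not tested.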
